A study of Mus musculus with 8 samples.

Results

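The cyclic nucleotide phosphodiesterases are the enzymes that break down cyclic AMP (cAMP) and cyclic GMP (cGMP). The genes described are 10 members of this family, Pde1a, Pde1c, Pde2a, Pde3a, Pde3b, Pde4b, Pde4d, Pde5a, Pde9a and Pde10a. They were found by gene symbol among the 55679 genes of the expression table, and all 10 were present. RNA-seq had been carried out on the left ventricle of male wild-type C57BL/6J mice, with 4 libraries in the control group and 4 in the ANG II group. The ANG II mice received angiotensin II, a hormone that constricts vessels and increases blood pressure, at 1500 ng/kg/min for 7 days from an osmotic pump placed under the skin. The control mice received saline for the same 7 days. The labels give the left ventricle as the source, while their extraction text speaks of CRC cells, and the cardiomyocyte markers Myh6 and Tnnt2 were at 10367 and 5042 FPKM on average in control. No gene was altered in either group, and the whole ventricle was sampled, so fewer cells of a type and less RNA per cell cannot be told apart.

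In the heart, cAMP is made by adenylyl cyclases after adrenergic stimulation and acts mainly through protein kinase A, while cGMP is made by guanylyl cyclases after nitric oxide or natriuretic peptides and acts through protein kinase G. Phosphodiesterases end both signals. The subfamilies differ in what they cleave and in what controls them: PDE1 enzymes are switched on by calcium and calmodulin and cleave both nucleotides, PDE3 enzymes can cleave both but act mainly on cAMP and are inhibited by cGMP, PDE4 enzymes are specific for cAMP, and PDE5 and PDE9 enzymes are specific for cGMP.

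Levels are FPKM, fragment numbers divided by transcript length and by the size of the library. The libraries held between 14455913 and 16565379 fragments, as read from the steps of the deposited values, and depth did not separate the groups (exact two-sided permutation test, p = 0.629). A gene was called when the p-value of limma, adjusted by the Benjamini-Hochberg method over 19364 genes, was under 0.05 and the fold change on the log2(FPKM + 1) scale was beyond 0.5 in either direction. The median of all genes tested was itself 0.15 higher in ANG II on this scale. The share of fragments from mitochondrially encoded genes was 26.5 ± 0.307% in the control group and 19.96 ± 1.24% after ANG II (SD, n = 4 per group). Exact permutation tests are two-sided over 70 allocations of the 8 libraries, and 0.0286 is the smallest p-value they can give.

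After ANG II, the mean FPKM of Pde1a rose 2.30-fold and that of Pde3b rose 1.59-fold, which are log2 fold changes of 1.01 and 0.55 on the log2(FPKM + 1) scale, while no member was called lower. These are 2 of the 10 members, where 15.4% of all genes tested were called, 14% higher and 1.41% lower. Under median-of-ratios scaling, described below, Pde3b was not called and Pde1c was called lower. Among the 10 members, the subfamily partners of Pde1a and Pde3b were lower after ANG II: Pde1c and Pde3a passed the adjusted p-value threshold but not that of the fold change. The other PDE1 gene, Pde1b, is not among the 10 and was called higher. The adjusted p-value threshold alone was passed by 33.3% of all genes, 28.4% with higher and 4.91% with lower levels. The groups did not overlap for 3 members, with Pde1a and Pde3b higher and Pde3a lower, against 33.7% of all genes (28.7% higher and 5.06% lower). The median log2 fold change of the 10 members was 0.24, beside 0.15 for all genes.

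**Figure D1:**
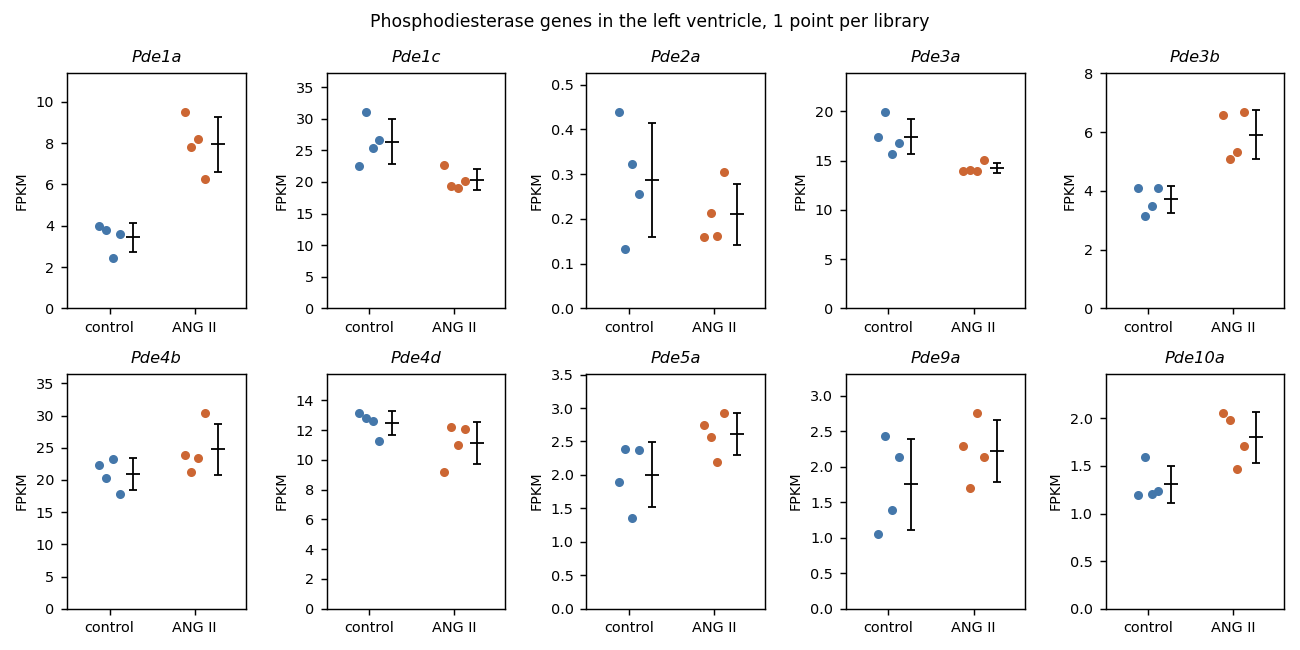
Level of each of the 10 phosphodiesterase genes in FPKM in the control and ANG II libraries. Points are libraries, and the black mark with its error bar is the mean ± SD of 4. The ANG II libraries of Pde1a (6.26 to 9.48 FPKM) and of Pde3b (5.07 to 6.67 FPKM) lie above all control libraries, those of Pde3a (13.9 to 15.03 FPKM) below, and the groups overlap for the others.

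In control ventricles the order of the mean levels was Pde1c, Pde4b, Pde3a, Pde4d, Pde3b, Pde1a, Pde5a, Pde9a, Pde10a and Pde2a. The ranges over the libraries overlapped between Pde1c and Pde4b, between Pde4b and Pde3a, between Pde3b and Pde1a, and from Pde5a through Pde9a to Pde10a. They did not overlap between Pde4d at 12.5 ± 0.812 FPKM and Pde3b at 3.71 ± 0.469 FPKM (SD, n = 4). In ANG II, Pde4b came before Pde1c and Pde1a before Pde3b, with ranges that overlapped in both pairs, and the other places were unchanged. The scaling by length matters for this order, since FPKM used a mean transcript length. Per kilobase of all annotated exon sequence, Pde3a ranked at the top in both groups, with 9.67 per kilobase in control and 7.90 in ANG II, and Pde1c had 4.36 in control. Pde4d ranked before Pde1a in control on this scale, with 1.95 and 1.34, and after it in ANG II, with 1.74 and 3.08.

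Pde1a (ENSMUSG00000059173) lies on the minus strand at chr2:79834453-80129458 of GRCm38 and encodes a calmodulin-dependent enzyme that has been linked to smooth muscle and to activated fibroblasts. In control 1 to 4 its level was 3.98, 3.79, 2.44 and 3.59 FPKM. In ANG II 1 to 4 it was 9.48, 7.80, 8.20 and 6.26 FPKM. The lowest ANG II library therefore stood well above the highest control library, and the mean went from 3.45 ± 0.694 to 7.94 ± 1.33 FPKM (SD, n = 4 per group). The log2 fold change was 1.01 (SE 0.147, 95% interval 0.68 to 1.34, limma adjusted p = 0.000684). Between 94 and 335 fragments lay behind each value.

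Pde1c (ENSMUSG00000004347, chr6:56069804-56569103, minus strand) encodes the calmodulin-dependent enzyme known from cardiomyocytes. Its levels were 22.5, 31.0, 25.4 and 26.6 FPKM in control 1 to 4, and 22.7, 19.4, 19.1 and 20.2 FPKM in ANG II 1 to 4. Only control 1 and ANG II 1 overlapped. The log2 fold change was -0.35 (SE 0.095, 95% interval -0.57 to -0.14, limma adjusted p = 0.0169), and the exact permutation test gave p = 0.0571. The other PDE1 gene, Pde1b, which is not among the 10, rose from 1.30 ± 0.147 to 2.79 ± 0.275 FPKM (SD, n = 4 per group). Its log2 fold change was 0.72 (limma adjusted p = 0.000599).

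Sequence before the annotated starts was read for the PDE1 pair, which moved in opposite directions. The windows are from RefSeq on GRCm38.p6 and cover the 250 bases before a start, written 5′ to 3′ on the strand of the gene. Pde1a has 4 such starts and Pde1c has 3, and the start shown for each was chosen because its window held a match. The capitals mark a half-site of the cAMP response element (TGACG or its reverse complement) for Pde1a at chr2:80038903-80039152, from 166 to 162 bases before the start, and an AP-1 motif (TGANTCA) for Pde1c at chr6:56369635-56369884, from 246 to 240 bases before the start.
Pde1a: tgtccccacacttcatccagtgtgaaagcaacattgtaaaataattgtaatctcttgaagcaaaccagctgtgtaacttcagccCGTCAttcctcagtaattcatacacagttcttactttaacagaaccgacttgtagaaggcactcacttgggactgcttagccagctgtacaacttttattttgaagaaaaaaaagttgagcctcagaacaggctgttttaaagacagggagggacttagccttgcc
Pde1c: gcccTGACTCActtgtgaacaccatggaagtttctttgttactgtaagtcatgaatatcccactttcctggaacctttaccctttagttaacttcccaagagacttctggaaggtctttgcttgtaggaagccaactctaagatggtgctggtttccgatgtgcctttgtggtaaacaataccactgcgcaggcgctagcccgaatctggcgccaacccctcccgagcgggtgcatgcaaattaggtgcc

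Windows of 300 bases, with 50 bases after the start included, were at hand for 7 of the 10 members, 20 windows in all, and not for Pde3a, Pde3b and Pde9a. Both strands were searched. The half-site TGACG was in 3 of the 20 windows, those of 1 start each of Pde1a, Pde4b and Pde2a, beside 20.8% of the 32851 windows of all genes. The full cAMP response element TGACGTCA, which contains the half-site, was in 0 of the 20 and in 1.79% of all windows. The AP-1 motif was in the 1 Pde1c window shown, and in 7.81% of all windows. A match describes the letters only, and levels summed over a gene do not tell which start was used.

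Pde3a (ENSMUSG00000041741, chr6:141249269-141507448, plus strand) encodes a cGMP-inhibited phosphodiesterase that acts on contraction in heart muscle. Its levels were 17.4, 19.9, 15.7 and 16.8 FPKM in control 1 to 4. In ANG II 1 to 4 they were 13.9, 14.02, 13.99 and 15.03 FPKM. Every ANG II library was below every control library, with a log2 fold change of -0.27 (SE 0.0761, 95% interval -0.44 to -0.10, limma adjusted p = 0.0209, exact permutation p = 0.0286). Without ANG II 1 the adjusted p-value of limma was 0.0556. A gene on the opposite strand covers 5.82% of its exon length.

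Pde3b (ENSMUSG00000030671, chr7:114415281-114539251, plus strand) encodes the other PDE3 enzyme, best known from fat and liver, where it acts in the response to insulin. Its levels were 4.08, 3.15, 3.49 and 4.11 FPKM in control 1 to 4, and 6.60, 5.07, 5.32 and 6.67 FPKM in ANG II 1 to 4. The groups were apart, and the mean went from 3.71 ± 0.469 to 5.92 ± 0.836 FPKM (SD, n = 4 per group). The log2 fold change of 0.55 (SE 0.116, 95% interval 0.29 to 0.81, limma adjusted p = 0.00511) was close to the threshold of 0.5. Without control 2 it was 0.49 and without ANG II 4 it was 0.4995, which ended the call in both cases. It was also not called under 4 other settings, with 0.36 under median-of-ratios scaling, 0.24 under quantile normalization (limma adjusted p = 0.148), 0.43 without mitochondrially encoded and top 10 genes, and 0.44 by voom with median-of-ratios scaling.

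Pde4b and Pde4d encode cAMP-specific enzymes that are held near receptors and ion channels by anchoring proteins. Pde4b (ENSMUSG00000028525, chr4:102087543-102607259, plus strand) was at 22.4, 20.4, 23.2 and 17.8 FPKM in control 1 to 4 and at 23.8, 21.3, 23.4 and 30.4 FPKM in ANG II 1 to 4. ANG II 4 stood above the rest, and the groups overlapped. The log2 fold change of 0.23 did not pass the test (95% interval -0.03 to 0.48, limma adjusted p = 0.163). For Pde4d (ENSMUSG00000021699, chr13:108449948-109953461, plus strand), the values ran from 11.3 to 13.2 FPKM in control and from 9.15 to 12.2 FPKM in ANG II. Its log2 fold change of -0.16 did not pass the test either (95% interval -0.37 to 0.05, limma adjusted p = 0.234). Both intervals leave room for a change in each direction. The scaling moved both values: under median-of-ratios scaling Pde4b was at 0.006, and Pde4d at -0.37 passed the adjusted p-value threshold (limma adjusted p = 0.0161) but not that of the fold change. Single libraries moved them too, to 0.12 for Pde4b without ANG II 4 and to -0.08 for Pde4d without ANG II 1.

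Among the cGMP-specific members, Pde5a (ENSMUSG00000053965, chr3:122728947-122859374, plus strand), the target of sildenafil, was at 1.90, 2.38, 1.36 and 2.37 FPKM in control 1 to 4 and at 2.75, 2.57, 2.20 and 2.93 FPKM in ANG II 1 to 4. Only ANG II 3 fell within the control range. The log2 fold change was 0.28 (95% interval -0.03 to 0.59, limma adjusted p = 0.156), so a difference was not established. Without control 3 it was 0.17. Pde9a (ENSMUSG00000041119, chr17:31386210-31476310, plus strand), whose enzyme acts on cGMP raised by natriuretic peptides, varied most among the control libraries of the members above 1 FPKM, from 1.06 to 2.43 FPKM, a coefficient of variation of 36.4%. Its ANG II values, from 1.70 to 2.76 FPKM, overlapped with these (log2 fold change 0.25, limma adjusted p = 0.324), with 22 to 60 fragments behind each value. Without control 1 the log2 fold change was 0.12. Genes on the opposite strand cover 8.34% of the Pde9a exon length.

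Pde10a (ENSMUSG00000023868, chr17:8525372-8986648, plus strand), which encodes an enzyme for both nucleotides that is best known from the striatum of the brain, was at 1.19 to 1.59 FPKM in control and 1.47 to 2.06 FPKM in ANG II. Only control 2 reached into the ANG II range. The log2 fold change was 0.28 (95% interval 0.03 to 0.53), and the limma adjusted p = 0.0849 did not pass. It was 0.14 under median-of-ratios scaling, 0.006 under quantile normalization and 0.43 with a pseudocount of 0.1. With no variance trend the adjusted p-value of limma was 0.0473, and the fold change threshold was still not passed.

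Pde2a (ENSMUSG00000110195, chr7:101421691-101512827, plus strand) encodes an enzyme for both nucleotides that cGMP stimulates. It was listed at 0.133 to 0.438 FPKM in control and 0.161 to 0.305 FPKM in ANG II, with 4 to 13 fragments a library (log2 fold change -0.09, limma adjusted p = 0.547). Without control 1 the log2 fold change was -0.03 and without control 2 it was -0.15. Its level is uncertain. Gm45837, a gene model on the same strand, covers 64.3% of its exon length and holds 62.8% of its 50-base words, while Gm45837 was at 0 in 7 of the 8 libraries. Protein-coding genes with at least 60% of their exon length under another gene were under 1 FPKM in 95.5% of 359 cases, beside 45.4% of 20299 genes with under 1% of it covered.

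**Figure D2:**
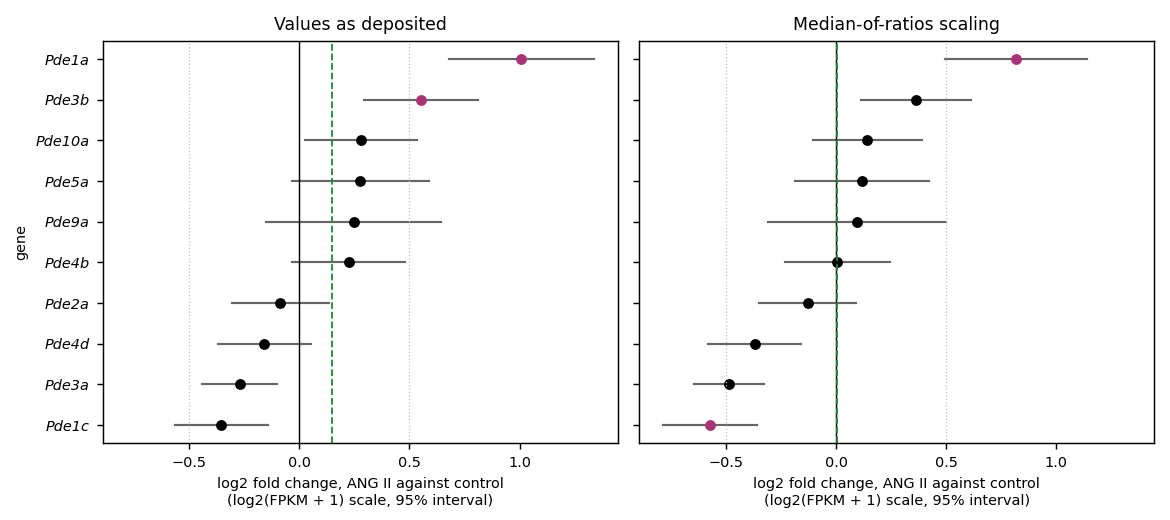
Log2 fold change of each of the 10 genes, ANG II against control, on the log2(FPKM + 1) scale with 95% intervals from limma, for the deposited values (left) and after median-of-ratios scaling (right). Purple marks called genes, Pde1a and Pde3b on the left and Pde1a and Pde1c on the right, the dotted lines are the thresholds at 0.5 in each direction, and the dashed green line is the median of all genes, at 0.15 on the left and 0.004 on the right.

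The ratio of subfamily partners inside a library is the same for any single scaling factor given to that library, though not under quantile normalization. The 3 pairs were chosen after the opposite shifts of the partners were seen, so their ratios are a description, with no test. The ratio of Pde1a to Pde1c was 0.177, 0.122, 0.0958 and 0.135 in control 1 to 4 and 0.418, 0.401, 0.430 and 0.310 in ANG II 1 to 4. All ANG II libraries were above all control libraries, and the ratio was 2.99 times as high. Pde3b to Pde3a went the same way, from 0.234, 0.158, 0.223 and 0.245 in control to 0.473, 0.362, 0.381 and 0.444 in ANG II, 1.94 times as high. Since Pde3b and Pde3a were each apart in opposite directions, the groups had to be apart for this ratio. In both pairs the less abundant gene gained on the more abundant one. Pde4b to Pde4d was 1.68 ± 0.123 in the control group and 2.25 ± 0.399 after ANG II (SD, n = 4 per group), with overlapping groups.

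**Figure D3:**
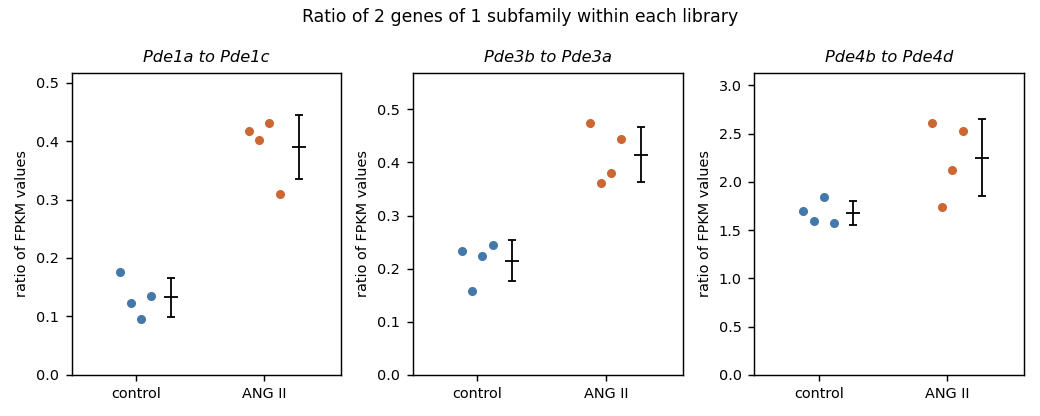
Ratio of the FPKM of subfamily partners within each library, on linear axes from 0, for Pde1a to Pde1c, Pde3b to Pde3a and Pde4b to Pde4d. Points are libraries, and the black mark with its error bar is the mean ± SD of 4. The groups are apart for the PDE1 pair (0.132 and 0.390 on average) and the PDE3 pair (0.215 and 0.415), and overlap for the PDE4 pair.

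With the deposited scaling, the summed level of the family was not shown to differ between the groups. The 23 phosphodiesterase genes of the table summed to 187 ± 3.33 FPKM in the control group and 181 ± 8.25 FPKM after ANG II (SD, n = 4 per group, exact permutation p = 0.257). The 10 members summed to 89.7 ± 5.24 and 91.1 ± 5.25 FPKM (exact permutation p = 0.743). The groups overlapped for both sums at this scaling. Median-of-ratios scaling divides the values by 0.908 to 0.957 in control and by 1.07 to 1.11 in ANG II. Both sums were then lower in every ANG II library than in every control library, a difference that was not tested. Within the sum of the 23 genes, Pde1a made up 1.85 ± 0.369% in control and 4.41 ± 0.795% in ANG II, and Pde3b 1.99 ± 0.271% and 3.26 ± 0.324%. Pde1c made up 14.1 ± 1.88% and 11.3 ± 0.745%, and Pde3a 9.33 ± 0.897% and 7.88 ± 0.234%. Pde1a, Pde3a and Pde3b each reached the smallest possible p-value of 0.0286, but adjusted over the 10 members their shares gave 0.0952. As a share of the 10 members alone, the groups were apart for Pde1a, Pde1c, Pde3a, Pde3b and Pde10a, each with an adjusted exact permutation p of 0.0571. The difference was then 4.91 percentage points for Pde1a, beside 2.56 within the 23 genes, and -7.01 for Pde1c, beside -2.87.

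**Figure D4:**
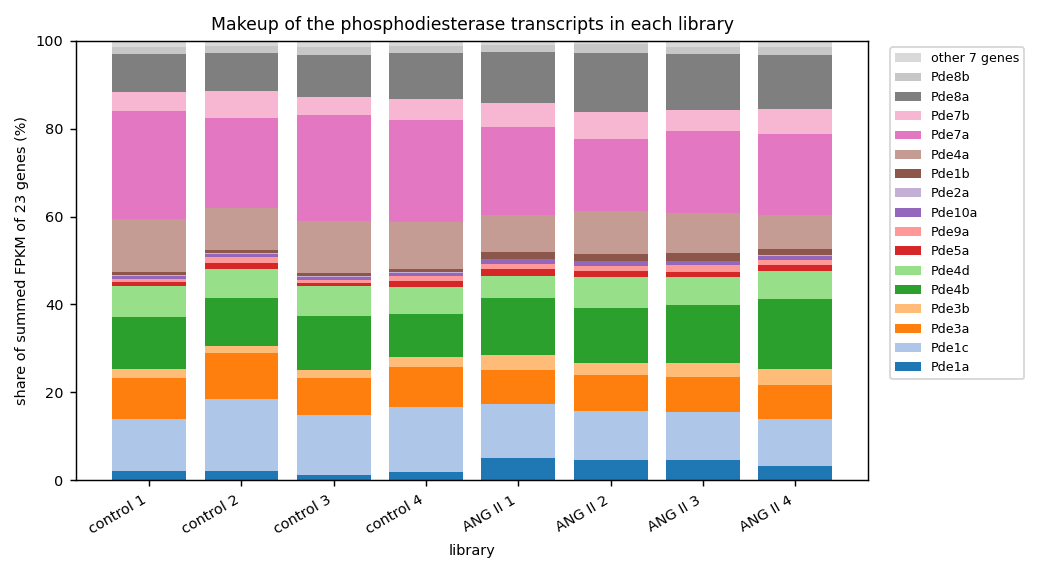
Share of each phosphodiesterase gene in the summed FPKM of the 23 genes, per library, in percent. Pde1a, Pde1b, Pde3b and Pde8a take a larger part of the sum in the ANG II libraries, and Pde3a and Pde7a a smaller one. Pde7a is still the largest part in every library, with 23.1% in control and 18.4% in ANG II on average.

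Grouped by substrate, the PDE4, PDE7 and PDE8 genes were counted as cAMP-specific, the PDE5, PDE6 and PDE9 genes as cGMP-specific, and the PDE1, PDE2, PDE3, PDE10 and PDE11 genes as acting on both. Genes of cAMP-specific enzymes made up 68.8 ± 3.05% of the sum in the control group and 67.5 ± 1.55% after ANG II (exact permutation p = 0.514). Genes of enzymes for both nucleotides made up 29.0 ± 2.52% and 29.7 ± 1.54% (exact permutation p = 0.657). Genes of cGMP-specific enzymes made up 2.21 ± 0.545% and 2.86 ± 0.180% (SD, n = 4 per group, exact permutation p = 0.0571). The makeup by substrate was thus not shown to differ. Leaving out 1 library moved the difference of the cAMP-specific share from -1.29 percentage points to between -2.58 (without control 2) and -0.404 (without control 3).

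Of the 13 other genes of the family, 9 were tested and 1, Pde1b, was called, where 15.4% of all genes were. Pde7a, which encodes a cAMP-specific enzyme, had the highest FPKM of the family, an order that depends on the transcript length used, with 43.1 ± 3.48 FPKM in the control group and 33.4 ± 3.72 FPKM after ANG II (SD, n = 4 per group). Its log2 fold change of -0.36 passed the adjusted p-value threshold (limma adjusted p = 0.0106) but not that of the fold change. The groups did not overlap for 4 of the 9, beside 33.7% of all genes: Pde1b, Pde7a and, named after their values were seen, the cAMP-specific Pde4a and Pde8a. Pde4a was at 20.7 ± 2.28 and 15.8 ± 0.877 FPKM (log2 fold change -0.37, limma adjusted p = 0.00712), and Pde8a at 17.3 ± 1.33 and 22.6 ± 0.976 FPKM (log2 fold change 0.37, limma adjusted p = 0.00219).

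The direction of 2 members and the call of 3 depended on how the libraries were scaled. Median-of-ratios scaling brings the median of all genes to 0.004. Pde1a was still called there, and it was called under all 18 alternatives tried, with log2 fold changes from 0.71 to 1.22 and limma adjusted p-values from 0.000128 to 0.00466. Pde3b was not called under median-of-ratios scaling (log2 fold change 0.36, limma adjusted p = 0.0358). Pde1c was called lower there (log2 fold change -0.57, limma adjusted p = 0.00173), where 12.8% of all genes were called, 8.62% higher and 4.15% lower. Under quantile normalization Pde1c and Pde3a were called lower, Pde3a with a log2 fold change of -0.51, and Pde1a higher, where 12.4% of all genes were called, 7.3% higher and 5.09% lower. The same 3 genes were called by voom on the recovered fragments with median-of-ratios scaling, where 17% of all genes were called, 11.5% higher and 5.56% lower. With the median of all genes subtracted, the log2 fold changes were 0.86 for Pde1a, 0.40 for Pde3b, -0.50 for Pde1c and -0.42 for Pde3a. Pde5a and Pde9a changed sign under quantile normalization.

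The genes around the phosphodiesterases, those that make, sense or carry cyclic nucleotides, were read from lists of the pathway. Together with the 13 other phosphodiesterases they hold 79 genes, of which 65 were tested, 8 were called higher and 0 lower, where 14% of all genes were called higher and 1.41% lower, so the number of calls in these lists was no larger than that share of 65 genes gives. Their median log2 fold change was 0.14, beside 0.15 for all genes. Among adenylyl cyclases, 1 of 9 tested was called: Adcy7, a form known from immune cells, rose from 6.35 ± 0.861 to 17.9 ± 1.40 FPKM (SD, n = 4 per group). Its log2 fold change was 1.37 (limma adjusted p = 1.41e-05). Adcy6, a main cardiac form and the most abundant of the list, was at 69.4 ± 2.02 and 66.1 ± 5.44 FPKM and did not pass (limma adjusted p = 0.415). Adcy1, named after its values were seen, was at 0.633 to 0.768 FPKM in control and 0.265 to 0.367 FPKM in ANG II, so the groups did not overlap. Its log2 fold change of -0.38 passed the adjusted p-value threshold (limma adjusted p = 0.00664) but not that of the fold change, on a scale that understates the change of low genes.

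On the cGMP side, 2 of 5 guanylyl cyclase genes tested were called, both higher, as were 14% of all genes, and neither was called under median-of-ratios scaling. These were Gucy1b1 and Gucy1a1, which encode subunits of the nitric oxide receptor and which rose from 13.3 ± 1.53 to 22.4 ± 2.42 FPKM and from 11.01 ± 1.99 to 17.3 ± 1.76 FPKM (SD, n = 4 per group). Their log2 fold changes were 0.71 (limma adjusted p = 0.000492) and 0.62 (limma adjusted p = 0.00401). Gucy1a2, a further subunit gene named after its value was seen, had 0.01 (limma adjusted p = 0.936). Npr2, the C-type natriuretic peptide receptor and the most abundant of the list, had a log2 fold change of 0.15 (limma adjusted p = 0.0804). Among kinases and other effectors, 2 of 16 were called, Prkg1, which encodes protein kinase G, with a log2 fold change of 0.57 (limma adjusted p = 0.00198), and Prkar1b, a regulatory subunit of protein kinase A, with 0.64 (limma adjusted p = 0.00629). Prkar1a, the most abundant effector gene, had 0.22 (limma adjusted p = 0.0295). Another gene on the same strand covers 8.95% of the Prkar1b exon length.

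Calmodulin, which switches on PDE1 enzymes, is encoded by 3 genes. Calm2 rose from 119 ± 11.9 to 181 ± 17.1 FPKM (SD, n = 4 per group, log2 fold change 0.60, limma adjusted p = 0.000553), and Calm3, the most abundant, had a log2 fold change of 0.39 (limma adjusted p = 0.00218). None of the 13 anchoring and scaffold genes tested was called, with Pde4dip the most abundant (log2 fold change 0.16, limma adjusted p = 0.142). Of 10 transport and CREB factor genes, 1 was called, Creb3 with a log2 fold change of 0.61 (limma adjusted p = 0.000761), and 20.8% of its exon length lies under genes on the opposite strand. Atf1, the most abundant of that list, was at 70.9 FPKM in the control group and 70.5 FPKM after ANG II. Under median-of-ratios scaling the genes of these lists that stayed called higher were Adcy7 and Pde1b, and 4 were called lower, with these log2 fold changes: Pde4a (-0.58), Pde7a (-0.59), Akap1 (-0.57), an anchoring protein, and Pkia (-0.57), an inhibitor of protein kinase A.

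**Figure D5:**
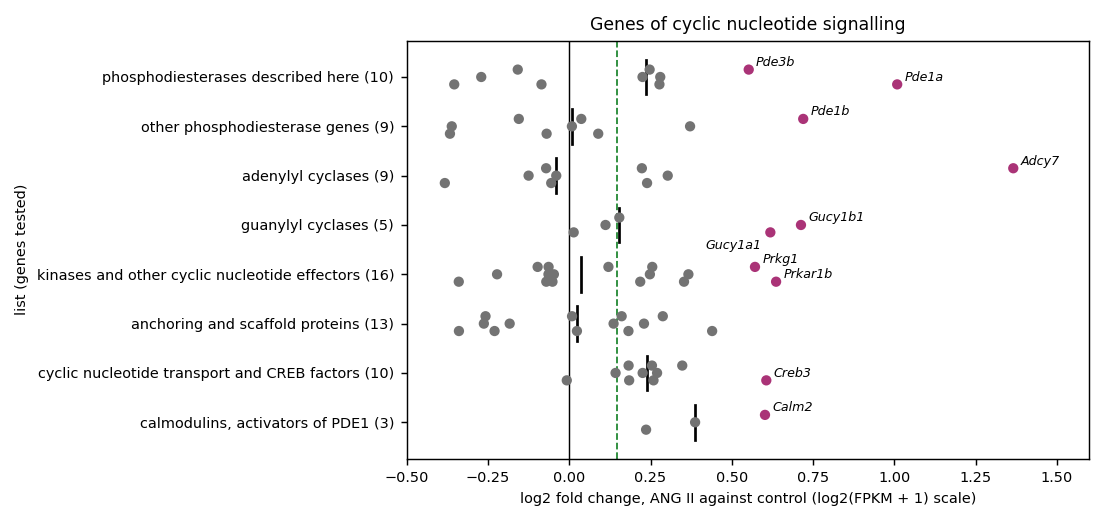
Log2 fold change of each tested gene of the pathway lists, ANG II against control, on the log2(FPKM + 1) scale. Each point is a gene, purple points are called genes, the black bar is the median of the list and the dashed green line that of all genes at 0.15. With the deposited scaling no list has a gene called lower (under median-of-ratios scaling 4 genes around the members and Pde1c were), and Adcy7 (1.37) and Pde1a (1.01) lie farthest to the right.

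Markers of several cell types moved with the groups, and their part in the phosphodiesterase values was not tested. Beside the counts that follow, 14% of all genes were called higher and 1.41% lower. Of 6 fibroblast markers, all 6 were called higher, Col1a1 and Col1a2 among them, and their summed level ranged from 376 to 538 FPKM in control and from 1733 to 1973 FPKM in ANG II. The 6 markers of activated fibroblasts, with Postn and Cthrc1, were also all called higher, from sums of 164 to 273 FPKM to sums of 1913 to 2399 FPKM. So were the 6 macrophage markers, with Cd68 and Csf1r, from 104 to 130 FPKM to 252 to 336 FPKM. These 3 lists moved in the direction of Pde1a and Pde3b. The neutrophil, erythroid, atrial and T cell lists had medians in that direction too.

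Of 8 cardiomyocyte markers, 2 were called lower, beside 1.41% of all genes. The adjusted p-value threshold was passed by 5 with lower values, beside 4.91% of all genes. Myh6 was among both, and the median log2 fold change of the 8 was -0.39. Their sum was 47364 to 48303 FPKM in control and 35506 to 38203 FPKM in ANG II, the direction of Pde1c and Pde3a. Of the vascular markers, 1 of 5 smooth muscle markers and 1 of 5 endothelial markers were called higher, beside 14% of all genes. Of 4 pericyte markers 1 was called higher and 1 lower. The smooth muscle sum was 171 to 222 FPKM in control and 156 to 183 FPKM in ANG II, with no call for Myh11 and Acta2. With the deposited scaling, the endothelial sum did not overlap, with 327 to 349 FPKM in control and 368 to 428 FPKM in ANG II. Under median-of-ratios scaling the endothelial sums overlapped. The smooth muscle sums were then lower in every ANG II library than in every control library. The 3 erythroid markers were all called higher, with sums of 90.4 to 452 FPKM and 540 to 1905 FPKM, and of 3 atrial markers 1 was called higher, with sums of 1.15 to 48.8 FPKM and 52.5 to 230.5 FPKM. Among the remaining lists, 1 of 5 T cell, 0 of 4 B cell and 0 of 3 adipocyte markers were called, and 3 of 3 neutrophil markers tested were called higher. Of 3 neuronal markers only Tubb3 was tested, and it was called higher with a log2 fold change of 1.43.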

How the data were processed

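For these 8 libraries the authors deposited 1 table of FPKM values for 55679 genes, 1 column a library. The submitters' processing notes name Bowtie2, HISAT and RSEM; the genome build and annotation are not given in the sources used here. Gene positions and exon overlaps came from GENCODE M21 (GRCm38), matched by gene ID for 55141 genes. Fragments were read from the steps of the FPKM values, using the mean transcript length of each gene (98.1 to 98.5% of values under 60 fragments were within 0.05 of a whole number). The 19364 genes whose mean reached 0.1 FPKM were tested with limma 3.58.1 (R 4.3.3, variance trend, no covariate) on log2(FPKM + 1), which understates changes of low genes. Single values used exact permutation tests over all 70 allocations (Python 3.11.15, numpy 2.4.6). The text names all members and, per pathway list, up to 4 called genes of largest change and the most abundant gene, and the leading 2 of each marker list. The members and lists were chosen with earlier results of these data known. The study's methods call the replicates biological and give more per group than the 4 libraries analysed here. The labels do not tie libraries to mice, and p-values measure the spread between these libraries.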

Additional observations from a re-analysis of the deposited data

Results flagged for a closer look

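In 26 groups of 4 libraries examined, 2 had a library whose distance to its nearest neighbour was a larger part of the range than Dixon's 95% critical value allows. Chance marks about 1 in 20 groups. Pde3a in ANG II 4 was at 15.03 FPKM, where the other ANG II libraries lay from 13.9 to 14.02 FPKM, and it was still below all control libraries. Pde10a in control 2 was at 1.59 FPKM, where the other control libraries lay from 1.19 to 1.24 FPKM, and it is the only control library within the ANG II range of that gene.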

How the results depend on the processing

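Of the 10 members, 2 were called higher and 0 lower, and the counts moved with the scaling. Median-of-ratios scaling gave 1 higher and 1 lower, quantile normalization 1 and 2, voom with median-of-ratios scaling (chosen after seeing the data) 1 and 2, and removal of mitochondrially encoded and top 10 genes 1 higher. With no fold change threshold 2 were lower. Leaving out 1 library gave 1 to 2 called higher, with 1 without control 2 and without ANG II 4. In the pathway lists, 8 of 65 genes tested were called higher and 0 lower, beside 14% and 1.41% of all genes. These counts became 2 and 4 by median of ratios, 1 and 5 by quantiles, and 5 and 7 by voom with median of ratios. They became 4 and 2 when mitochondrially encoded and top 10 genes were removed, and 17 and 7 with no fold change threshold. Of all genes, 8.62% were called higher and 4.15% lower by median of ratios. By quantiles these shares were 7.3% and 5.09%, and by voom with median of ratios 11.5% and 5.56%. With no fold change threshold they were 28.4% and 4.91%. With mitochondrially encoded and top 10 genes removed, 1976 of 19344 genes were called higher and 536 lower. In the pathway lists, a pseudocount of 0.1 gave 1 lower, where 390 of 19364 genes were. Voom on the fragments gave 2 lower, where 384 of 19076 genes were. The sign turned under quantile normalization for Pde5a (-0.0258) and Pde9a (-0.0417), and without control 3 for the share of genes for both nucleotides, where ANG II minus control was -0.0846 percentage points, in a range of -0.0846 to 1.74 over the libraries left out. The cause was not tested.

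The replicate numbers did not pair the libraries: deviations of same-numbered libraries correlated from -0.03 to 0.06, and control 1 correlated best with ANG II 3. With the replicate block, 2 members were called higher and 0 lower and 8 pathway genes higher, and calls over all genes went from 2981 to 2968. Low depth limits Pde2a (4 to 13 fragments) and Pde9a (22 to 60 fragments) most.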

Other observations

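Genes of the PDE6 enzymes, which serve phototransduction in the retina, had few fragments in the ventricle. Pde6g was found in all 8 libraries, with 3 to 11 fragments. Pde6c was at 0 in all 8 libraries. Pde6a was at 0 in the 4 control libraries and rested on 1 fragment in each of the 4 ANG II libraries, which is under the floor of 3 fragments that a value of 0 allows, so no fold change is given. Pde11a, which encodes an enzyme for both nucleotides, spread widely within the control group, from 0.0521 to 0.552 FPKM, and its log2 fold change was 0.04 (limma adjusted p = 0.864).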
